A study of Caenorhabditis elegans with 2 samples.

Results

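The genes described here encode the core of the AMPK and TOR nutrient-sensing kinases of Caenorhabditis elegans: aak-1 and aak-2 (AMPK), let-363, daf-15 and rict-1 (TOR and its partners), raga-1 and rheb-1 (GTPases upstream of TOR) and rsks-1 (S6 kinase downstream of it). These 8 of 19973 annotated protein-coding genes were taken by name, and every deposited region whose summit lay in the gene body or up to 2000 bp upstream was assigned to the gene, whatever its strength. Of 29768 regions in the list made from the pooled replicates, 33 were assigned to the 8 genes. The list of replicate 1 gave 33 of its 30000 regions, and that of replicate 2 gave 34 of its 30000. The samples were 2 biological replicates of 1 group, whole L4 larvae of strain OP342, profiled by chromatin immunoprecipitation and sequencing (ChIP-seq) for eGFP-SKN-1. Both carry the unc-119(ed3) mutation on chromosome III and the integrated transgene wgIs342, sex was pooled male and female, and age is labelled unknown. The labels record the antibody only as skn-1 and name no driver for the transgene or the tissues in which it is made, and untagged or mock-precipitated worms were not analysed here.

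AMPK is a kinase switched on when cellular energy is low, and it restrains growth and biosynthesis. TOR is a kinase that promotes growth and protein synthesis when nutrients are ample, acting in complex 1 (with DAF-15, the worm Raptor) and complex 2 (with RICT-1, the worm Rictor). Rag and Rheb GTPases bring and activate complex 1 at the lysosome, and S6 kinase is one of its best known substrates. In C. elegans several of these genes are known for setting lifespan, fat storage and the response to starvation. SKN-1, the transcription factor profiled here, is related to mammalian Nrf proteins. It is known for activating stress defence genes and binds DNA as a monomer at the site WWTRTCAT (W stands for A or T, R for A or G).

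The strongest region of the set lay in aak-2, and its sequence is shown because it is the only thresholded peak among the 8 genes and holds a full SKN-1 site. Such a site is no mark of the thresholded peaks: 5 of all 97 (5.15%) held one, beside 9.35% of all pooled regions. The sequence covers chrX:16797016-16797216 of ce11, plus strand, which is the gene's strand, 100 bases to each side of the pooled summit, with the site in capitals. The daf-15 sequence, chrIV:9388476-9388676 on the plus strand, also the gene's strand, is centred on a summit in a coding exon. That exon is 180 bp long, shorter than the stretch, so the stretch also holds bases outside the exon. The daf-15 sequence was chosen after its values were seen, as the strongest region of the set outside the 1000 strongest of the list, and holds no full site. Both were read from the RefSeq sequence of WBcel235, the assembly called ce11.
aak-2 intron 1: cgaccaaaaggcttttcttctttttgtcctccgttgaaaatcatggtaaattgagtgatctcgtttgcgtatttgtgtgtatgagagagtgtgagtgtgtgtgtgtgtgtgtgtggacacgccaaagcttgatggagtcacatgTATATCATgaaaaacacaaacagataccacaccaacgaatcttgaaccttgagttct
daf-15 coding exon: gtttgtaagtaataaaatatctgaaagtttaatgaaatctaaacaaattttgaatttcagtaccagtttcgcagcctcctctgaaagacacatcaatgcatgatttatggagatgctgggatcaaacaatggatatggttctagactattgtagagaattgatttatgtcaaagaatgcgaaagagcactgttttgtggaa
In the aak-2 sequence an unbroken run of alternating G and T, 21 bases long, spans the summit from position -6 to position 14, counted from the summit. The site follows it, with its centre 48 bases after the summit. GC content was 41.3% in the aak-2 stretch and 33.3% in the daf-15 stretch.

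Most of the full SKN-1 sites lay within 100 bp of a summit in 1 list alone. Both strands were searched within 100 bp of each summit in the pooled list and both replicate lists. In 5 of the 8 genes 9 distinct sites turned up, 3 of these sites upstream of the gene. The share of all protein-coding genes with a site by this rule was not counted, so 5 of 8 may be ordinary. The 8 sites that can be shown follow, 30 bases each, 5′ to 3′ on the strand of the site, with the 8 matching bases in capitals. The search of the replicate lists was added after the pooled values were seen.
aak-2 intron 1, chrX:16797160-16797167 plus strand: ggagtcacatgTATATCATgaaaaacacaa
aak-2 intron 1, chrX:16797649-16797656 plus strand: ccagattcgatTTTGTCATtcttttatgca
aak-1 upstream, chrIII:8761495-8761502 minus strand: atttgatttatATTGTCATacactgtcaga
rheb-1 upstream, chrIII:9456411-9456418 plus strand: ttgaaagcgttATTATCATtcgaaattggc
rheb-1 upstream, chrIII:9456482-9456489 plus strand: gatataatcttTTTATCATcatttttgttg
rheb-1 intron, chrIII:9455671-9455678 minus strand: cactggtaaatTTTATCATtttttgagctt
rict-1 coding exon, chrII:13114713-13114720 plus strand: agagcttacgcATTATCATtcgtaagcata
rict-1 intron, chrII:13106556-13106563 minus strand: gcgcaatgttaTATGTCATttagccgtgtg
The coordinates are those of the 8 capital bases. The aak-1 site and the rheb-1 intron site also lay inside pooled regions, ranked 24815 and 23074. Both were more than 100 bp from the pooled summit and so were not counted there. Of the 33 pooled regions of the set, 2 (6.06%) held a full site within 100 bp of the summit, beside 9.35% of all pooled regions. In replicate 1 it was 3 of 33 regions (9.09%), beside 9.42% of that list. In replicate 2 it was 6 of 34 (17.6%), beside 9.78% of that list. The lists thus differed in whether the set's share lay below, near or above that of the whole list, and each share rests on few regions.

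All 8 genes had at least 1 pooled region, which is common, since 73.1% of protein-coding genes did, and 79.7% of those whose windows fall in the same range of length, 3418 to 20572 bp. Each window is the gene body with its 2000 bp upstream. The strongest regions were uneven across the set. A region of the 1000 strongest by signal value, the caller's score in the deposited lists, lay in aak-2, let-363 and rsks-1. These are 3 of 8 genes, beside 5.31% of all protein-coding genes and 6.04% of those in the same range of window length. Long windows catch more regions. Of genes with windows of at least 9000 bp, a limit chosen after the values were seen, 12.6% had a region that strong, beside 3 of the 5 such genes in the set. A region of the 5000 strongest lay in 5 of the 8 genes, daf-15 and raga-1 being added, beside 22.5% of all genes. A peak of the authors' thresholded list of 97 peaks lay in 1 of the 8, aak-2, beside 0.591% of all genes. Neither this share nor that for the 5000 strongest was taken by window length.

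**Figure D1:**
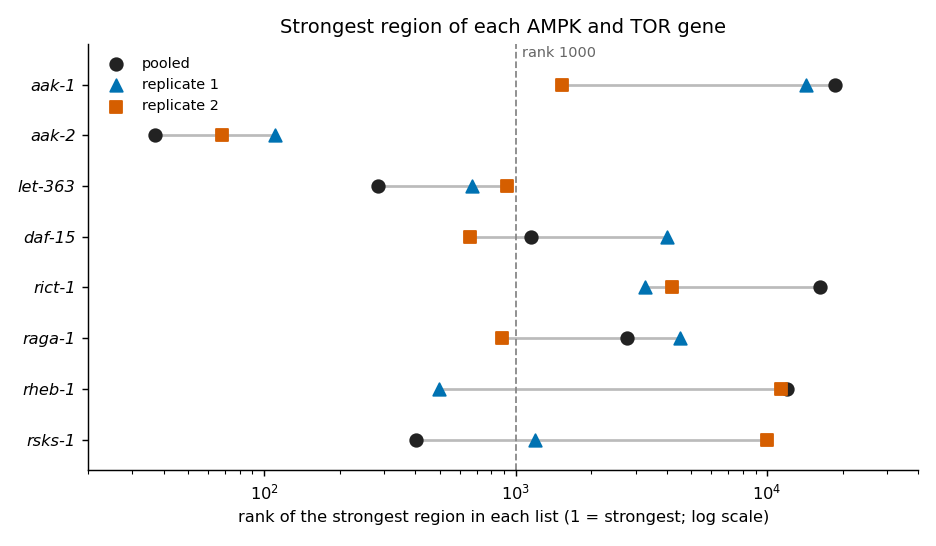
Rank of the strongest region of each of the 8 genes in the pooled list and in each replicate's list, on a log axis where rank 1 is the strongest region. aak-2 ranks 37, 111 and 68 in the pooled, replicate 1 and replicate 2 lists, whereas aak-1 and rict-1 rank 18605 and 16257 in the pooled list.

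The median rank of the strongest pooled region was 1965 over the 8 genes, 6893 over 31 other genes of the pathway and 14970 over all protein-coding genes, with genes lacking a region counted last. Among genes with windows of at least 9000 bp it was 5578.5. The value for the 8 genes depends on the window and the list: it was 2979 with gene bodies only, 997 with 5000 bp upstream and 1225.5 in the list of replicate 2 alone. No test was run, because the samples form 1 group and regions of a list are not replicates. Taken region by region, the set held both strong and weak regions. The median signal value was 8.40 over the 33 regions and 9.53 over all pooled regions, and 17 of the 33 ranked below 20000, beside 32.8% of all pooled regions. At the strong end, 3 of the 33 were among the 1000 strongest, beside 3.36% of all, and 8 were among the 5000 strongest, beside 16.8%. Density was 0.398 regions per kb of window in the 8 genes, 0.441 per kb in the other pathway genes and 0.318 per kb over all protein-coding windows. Signal values are on a scale the sources used here do not state and carry no replicate error. The deposited −log10 q-value was 2.51, 2.43 and 2.28 for the best pooled regions of aak-2, rsks-1 and let-363. For that of daf-15 it was 0.887, and every other pooled region of the set had 0.503 or less. The pooled list holds background regions as well as peaks, so regions with such low values are not shown to be bound. The lists hold no read counts, so depth is unknown, and the tissue of whole worms cannot be checked against markers in a list of regions.

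The summits of the 33 regions fell upstream in 10 cases, in a coding exon in 11, in an intron in 9 and in a 3′ UTR in 3, with none in a 5′ UTR. For comparison, every pair of a protein-coding gene and a pooled region with its summit in the gene's window was counted. The 10 upstream summits (30.3%) stand beside 38.8% of all such pairs and 35.3% of those with windows in the same range of length. Within 500 bp of the gene's outermost annotated start lay 4 summits (12.1%), beside 21.5% of all pairs and 19.3% in that range. No upstream region was among the 1000 strongest, and the best of them ranked 2776. For 15 of the 33 (45.5%) the nearest protein-coding start was that of another gene, beside 34.9% of all pairs and 33.2% in that range, so assignment by window does not say which gene a region belongs to.

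**Figure D2:**
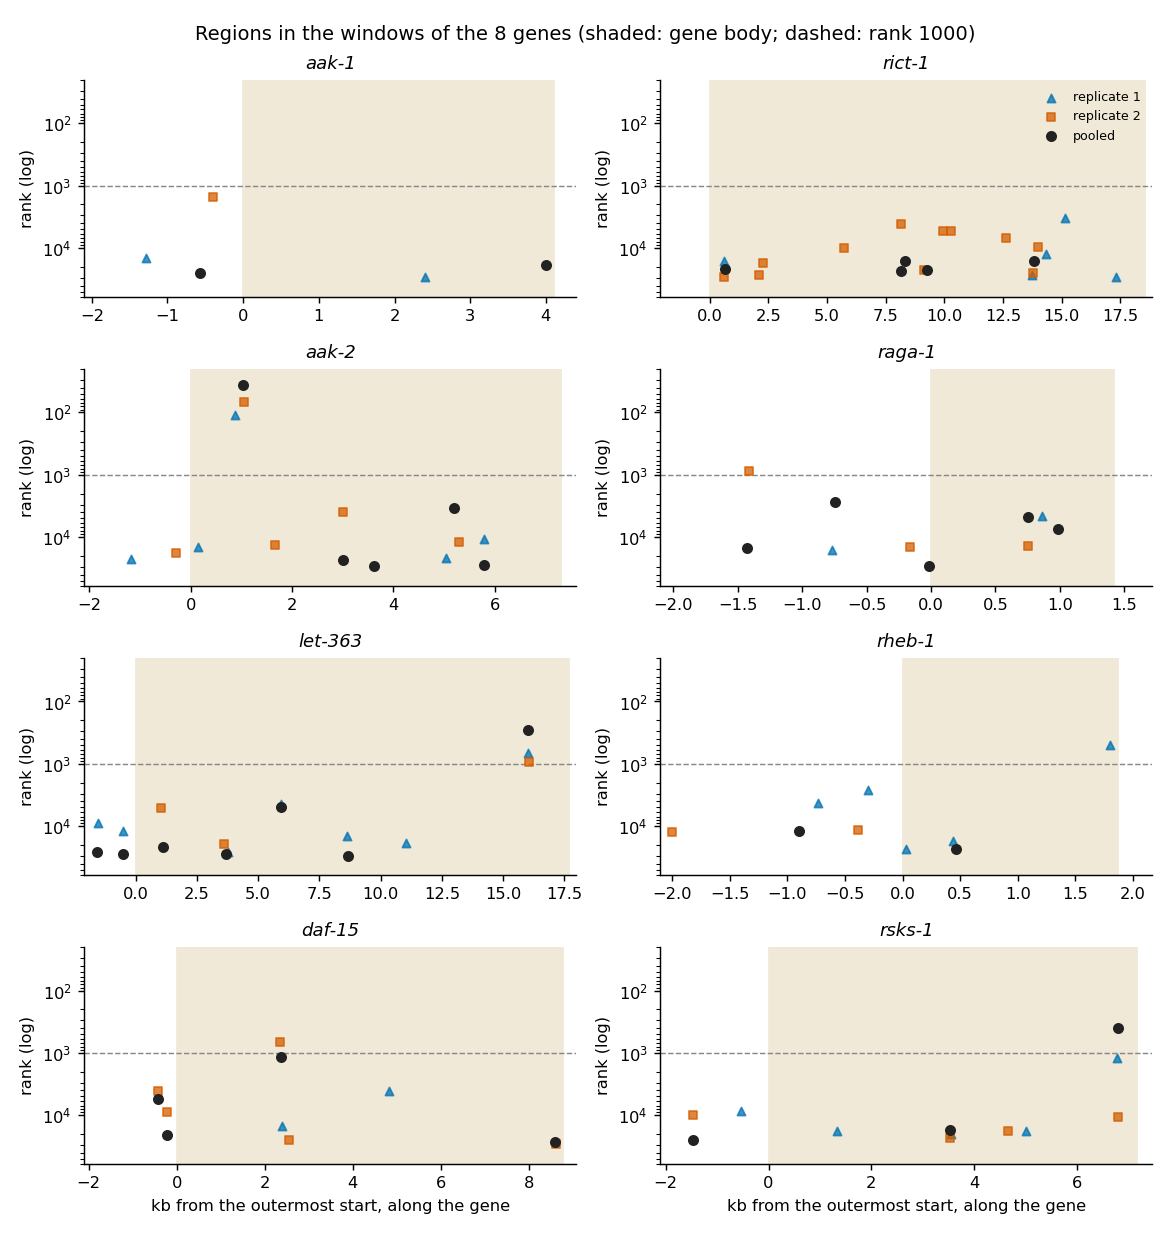
Pooled and replicate regions along each of the 8 genes, with the distance of the summit from the gene's outermost annotated start in kb across and the rank in the region's own list up a log axis, strong regions at the top, the gene body shaded and rank 1000 dashed. The strong regions of aak-2, let-363 and rsks-1 lie 1029, 16000 and 6788 bp downstream of the start, inside the shaded gene body.

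The AMPK catalytic subunits stood far apart. aak-2 (WBGene00020142, chromosome X, 16796087 to 16803398, plus strand), the subunit known for lifespan extension under low energy, held 5 pooled regions, and the strongest ranked 37 of 29768 with a signal value of 38.1. Only 0.270% of protein-coding genes had a stronger best region. It covered 16796921 to 16797310, inside the first intron of transcripts a and b, 885 bp into an intron of 3475 bp. Measured from the start of transcript a the summit sat 1029 bp downstream; it was 1027 bp downstream of that of b and 2591 bp upstream of that of c. Both replicates had a region there: rank 111 with signal value 16.5 in replicate 1 and rank 68 with signal value 17.1 in replicate 2. It was the top aak-2 region in each list.

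The replicates placed that summit differently. Replicate 1 put it 871 bp and replicate 2 put it 1059 bp downstream of the start, 188 bp apart, where the regions are 240 bp wide in replicate 1 and 396 bp wide in replicate 2. The site TATATCAT is centred 48 bp from the pooled summit and 18 bp from that of replicate 2, and it lies inside the pooled and replicate 2 regions. It lies 83 bp beyond the end of the replicate 1 region. A 60 bp non-coding RNA gene on the minus strand, T01C8.9 (WBGene00199326, 16797115 to 16797174), covers both the pooled summit and the site.

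**Figure D3:**
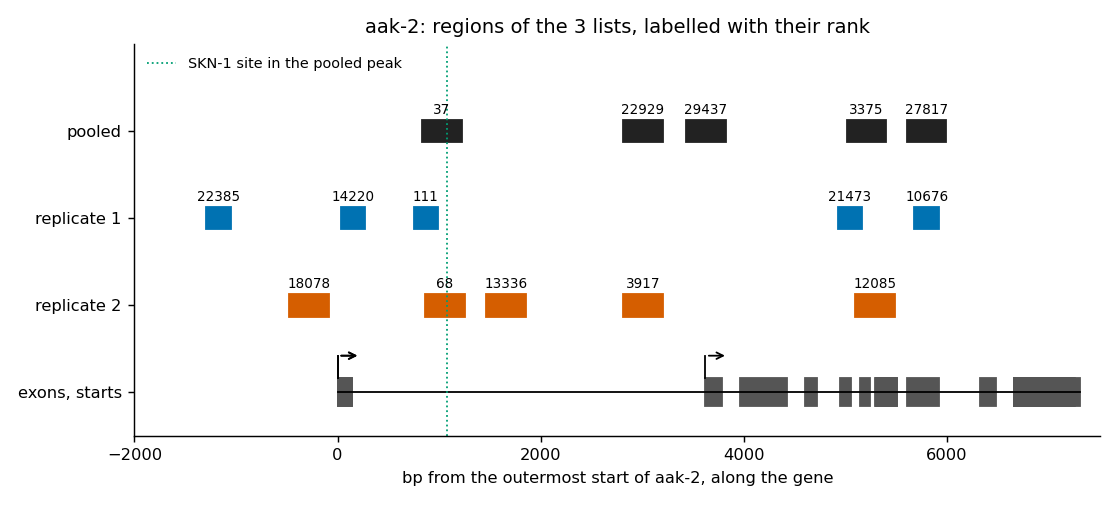
The regions of the pooled, replicate 1 and replicate 2 lists above the exons (boxes) and starts (arrows) of aak-2, each labelled with its rank, on an axis of distance in bp from the outermost start; the dotted line marks the full SKN-1 site. The top regions of the 3 lists fall together in the first intron, at 1029, 871 and 1059 bp, and the site lies in the pooled and replicate 2 regions but not in that of replicate 1.

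The other aak-2 regions were weaker. One ranked 3375 (signal value 14.2), with its summit 5206 bp downstream of the start in coding exon 6 of 10, overlapped by regions ranked 21473 in replicate 1 and 12085 in replicate 2. The remaining 3 ranked 22929, 29437 and 27817, at 3008, 3628 and 5800 bp. The first of these lay 612 bp upstream of the start of transcript c and overlapped a replicate 2 region ranked 3917. The second, 8 bp downstream of that same start, was overlapped by neither replicate. The second full site of aak-2, at 1566 bp, lay 91 bp from the summit of a replicate 2 region ranked 13336 that has no pooled counterpart.

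aak-1 (WBGene00019801, chromosome III, 8756990 to 8761090, minus strand), which encodes the other catalytic subunit, had only weak pooled regions. The best ranked 18605 (signal value 8.75), and 57.3% of protein-coding genes had a stronger one. Its summit lay 99 bp before the gene's end, where the 3′ UTR overlaps by 100 bp the convergent gene sma-2, a Smad gene, and neither replicate had a region there. The other ranked 24815 (signal value 7.69), 576 bp upstream of the start. There the replicates differed: replicate 2 had a region ranked 1524 (signal value 10.4), with its summit 401 bp upstream, and replicate 1 had none. The full site 8 bp from that replicate 2 summit is the aak-1 sequence given above. The best region of replicate 1 ranked 14223, at 1282 bp upstream.

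TOR itself carried a strong region far from its start. let-363 (WBGene00002583, chromosome I, 5245743 to 5263424, plus strand) encodes the TOR kinase and held 7 pooled regions, of which the best ranked 285 with a signal value of 23.1. Its summit lay in intron 29 of 31, 16000 bp downstream of the start of transcript a, 15962 bp downstream of that of b and 1681 bp before the gene's end. The nearest protein-coding start was that of vep-1, 1951 bp further on. Replicate 1 ranked a region there 672 (signal value 10.9) and replicate 2 ranked one 927 (signal value 11.4), with summits 17 and 36 bp from the pooled one. Both replicates thus placed a region of their 1000 strongest at the same place.

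A second let-363 region ranked 4852 (signal value 13.1), 5939 bp downstream of the start in intron 14. It overlapped a replicate 1 region ranked 4372 and none of replicate 2. It holds the other full site found within 100 bp of a pooled summit. The nearest protein-coding start was that of B0261.5, a gene of 804 bp inside let-363 on the other strand, 1145 bp away. The other 5 regions of let-363 were weak, ranking between 21866 and 29700. The pair upstream, 515 and 1572 bp from the start, lay near or in mrpl-47, a mitochondrial ribosomal protein gene.

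The complex-defining partners of TOR differed in rank. daf-15 (WBGene00000911, chromosome IV, 9386208 to 9394979, plus strand) had 4 pooled regions, the best ranking 1154 with a signal value of 17.6, just outside the 1000 strongest. Its summit, in the middle of the sequence given above, lay 2368 bp downstream of the outermost start and 2119 or 2126 bp downstream of the starts of the other transcripts, in an exon of 180 bp. The replicates ranked it far apart, at 14746 in replicate 1 and 660 (signal value 12.1) in replicate 2. Upstream, overlapping regions ranked 5474 and 20511 had summits 422 and 217 bp from the outermost start. Replicate 2 had regions there, ranked 4014 and 8798, and replicate 1 had none. The fourth region ranked 26980, in the 3′ UTR. The best region of replicate 1 in daf-15 ranked 4010, at 4828 bp, with no pooled region there.

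rict-1 (WBGene00009245, chromosome II, 13098239 to 13116810, minus strand) has the longest window of the set and the lowest density, 0.243 pooled regions per kb. Its 5 pooled regions were all weak, the best ranking 16257 (signal value 9.23), and 52.7% of protein-coding genes had a stronger best region. That region lay in intron 11, at 13805 bp, and its GC content of 20.4% was the lowest of the 33. A group of 3, ranked 22955, 16376 and 22161, lay in a 5390 bp intron that also holds the nested gene pqn-32, on the other strand, and the first 2 of them lay inside pqn-32. That intron is the first of the short transcript c, and the 3 summits were 1562, 1762 and 2686 bp downstream of its start. Replicate 2 listed 11 regions in rict-1 and replicate 1 listed 5, the best ranking 4175 in replicate 2 and 3265 in replicate 1, at different places. The rict-1 sites shown above lay 4 and 45 bp from the summits of replicate 2 regions ranked 26954 and 5422, and replicate 1 had no region at either.

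The GTPases upstream of complex 1 changed order between lists: the best region of raga-1 ranked ahead of that of rheb-1 in the pooled list and in replicate 2, and behind it in replicate 1. With 5000 bp upstream, the best pooled rank was 2776 for raga-1 and 840 for rheb-1. raga-1 (WBGene00006414, chromosome II, 11301359 to 11302776, plus strand), a Rag GTPase that signals amino acids to TOR, is the shortest gene of the set and had the highest density, 1.46 pooled regions per kb. Its best region ranked 2776 (signal value 14.8), 747 bp upstream, inside the neighbouring gene saps-1, which ends 98 bp before raga-1 begins on the same strand. Replicate 1 ranked a region there 16126, and replicate 2 had none. A second upstream region, 1427 bp from the start and also inside saps-1, ranked 15198 in the pooled list, but replicate 2 ranked its own region there 882 (signal value 11.5), and replicate 1 had none. Within the gene, overlapping regions ranked 4804 (signal value 13.1, exon 2 of 4) and 7484 (signal value 11.8, intron 3) at 756 and 988 bp, and the second of these summits was closer to the start of samp-1, 544 bp away. Both replicates overlapped them, with regions ranked 4506 in replicate 1 and 13661 in replicate 2. The region nearest to the start of raga-1, 13 bp upstream, was among the weakest, at rank 29537.

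rheb-1 (WBGene00010038, chromosome III, 9454163 to 9456030, minus strand), the GTPase that activates TOR complex 1, had its strongest regions at different places in the 3 lists. In the pooled list it had 2 regions, ranked 11989 (signal value 10.3), 902 bp upstream and inside spk-1, an SR protein kinase gene, and 23074 (signal value 7.96), 467 bp downstream of the start. Replicate 1 had regions over both, ranked 4287 and 17173, and replicate 2 over neither. Replicate 1 alone had a region ranked 495 (signal value 11.5) in the 3′ UTR, 68 bp before the gene's end and 169 bp upstream of the start of F54C8.7. It had no counterpart in the pooled list or in replicate 2. The starts of rheb-1 and spk-1 lie 578 bp apart and point away from each other. Between them replicate 1 had a region ranked 2622 and replicate 2 one ranked 11324, with summits 91 bp apart and no pooled region. The first of the upstream rheb-1 sites shown above lay 89 bp from the replicate 1 summit and 2 bp from that of replicate 2. The second upstream site lay 69 bp from the same replicate 2 summit, and the intron site lay 84 bp from the summit of the replicate 1 region ranked 17173.

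rsks-1 (WBGene00012929, chromosome III, 11245120 to 11252281, plus strand) encodes S6 kinase, the substrate through which TOR complex 1 promotes translation. Its best region ranked 403 (signal value 21.7), and 2.34% of protein-coding genes had a stronger one. Its summit lay at the far end of the gene, 6788 bp downstream of the start, in the 3′ UTR and 373 bp before the gene's end. The start of the next gene on the same strand, Y47D3A.32, lay 483 bp further on. Replicate 1 ranked a region there 1190 (signal value 9.64) and replicate 2 ranked one 10647, with summits 13 and 3 bp from the pooled one. The position was therefore shared, while the rank in replicate 2 was far lower, and the best rsks-1 region of replicate 2 was another, ranked 10042 at 1458 bp upstream. The other pooled regions ranked 17398 and 25078, at 3529 bp downstream and 1458 bp upstream.

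Seen across the replicates, only aak-2 and let-363 had a region of the 1000 strongest in both lists, 2 of 8 genes beside 1.29% of all protein-coding genes. In replicate 1 alone the genes with such a region were aak-2, let-363 and rheb-1, 3 of 8 beside 5.28%. In replicate 2 they were aak-2, let-363, daf-15 and raga-1, 4 of 8 beside 5.33%. None of these shares was taken by window length, and the windows of aak-2 and let-363 are long, 9312 and 19682 bp. Of the 33 pooled regions, 11 were overlapped by at least 1 bp by a region of both replicates, beside 28.9% of all pooled regions, which is near the set's share of 33.3%. Replicate 1, alone or with replicate 2, overlapped 19 (57.6%), beside 54.1% of all pooled regions. Replicate 2 alone overlapped 12 (36.4%), beside 31.7%, and neither overlapped 2 (6.06%), beside 14.2%. Since each replicate's list stops at 30000 regions whatever their strength, presence in it does not mark a region as bound.

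**Figure D4:**
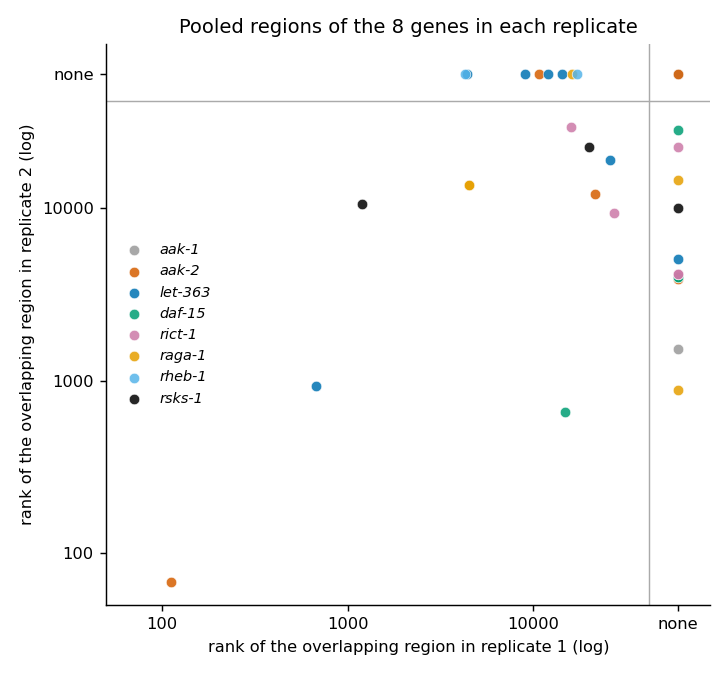
Rank of the overlapping region in replicate 1 against that in replicate 2 for the pooled regions of the 8 genes, on log axes, with regions that a list does not hold drawn at the mark none. The top aak-2 and let-363 regions are the only ones within rank 1000 in both, and 12 of 33 regions are overlapped by replicate 2 alone, beside 31.7% of all pooled regions.

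The wider pathway held some regions of similar strength. Of 31 other genes of AMPK and TOR signalling, 28 had a pooled region, 12 had 1 of the 5000 strongest, 4 had 1 of the 1000 strongest and none had a thresholded peak. Over all protein-coding genes the shares were 73.1%, 22.5%, 5.31% and 0.591%, in that order. Windows of at least 9000 bp belonged to 11 of the 31, and 12.6% of all genes with such windows had 1 of the 1000 strongest. The first of the 4 was unc-51, the worm ULK-type kinase that starts autophagy and is restrained by TOR, with a region ranked 147 (signal value 26.7) in a coding exon, 3246 bp downstream of its start. Replicate 1 ranked that region 8426 and replicate 2 ranked it 385. larp-1, a La-related RNA-binding protein gene, had a region ranked 222 (signal value 24.5), 674 bp upstream, but the start of wip-1 was closer, at 315 bp. Replicate 1 ranked it 118 and replicate 2 ranked it 1271.

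mop-25.1, which encodes a MO25-like scaffold of the kinase upstream of AMPK, had a region ranked 289 (signal value 23.0) in an intron, 321 bp upstream of the start of hrg-1, a heme transporter gene. Replicate 1 ranked it 14011 and replicate 2 ranked it 4059. hlh-30, the worm TFEB-type regulator of lysosome and autophagy genes, had an intronic region ranked 632 (signal value 19.8), which replicate 1 ranked 1960 and replicate 2 ranked 2861. At the other end, aakg-4, an AMPK gamma subunit gene, and nprl-2 and nprl-3, whose mammalian counterparts restrain TOR complex 1, had no pooled region. The regulatory beta subunit genes of AMPK, aakb-1 and aakb-2, had best ranks of 11361 and 16764, both upstream of the gene. The other gamma subunit genes, aakg-1, aakg-2, aakg-3 and aakg-5, had best ranks of 1619, 6893, 19853 and 29405. The aakb-2 and aakg-5 regions were nearer to the starts of Y47D3A.14 and R53.8, 65 and 142 bp away. For par-4, the LKB1-type kinase that activates AMPK, the best rank was 27316.

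**Figure D5:**
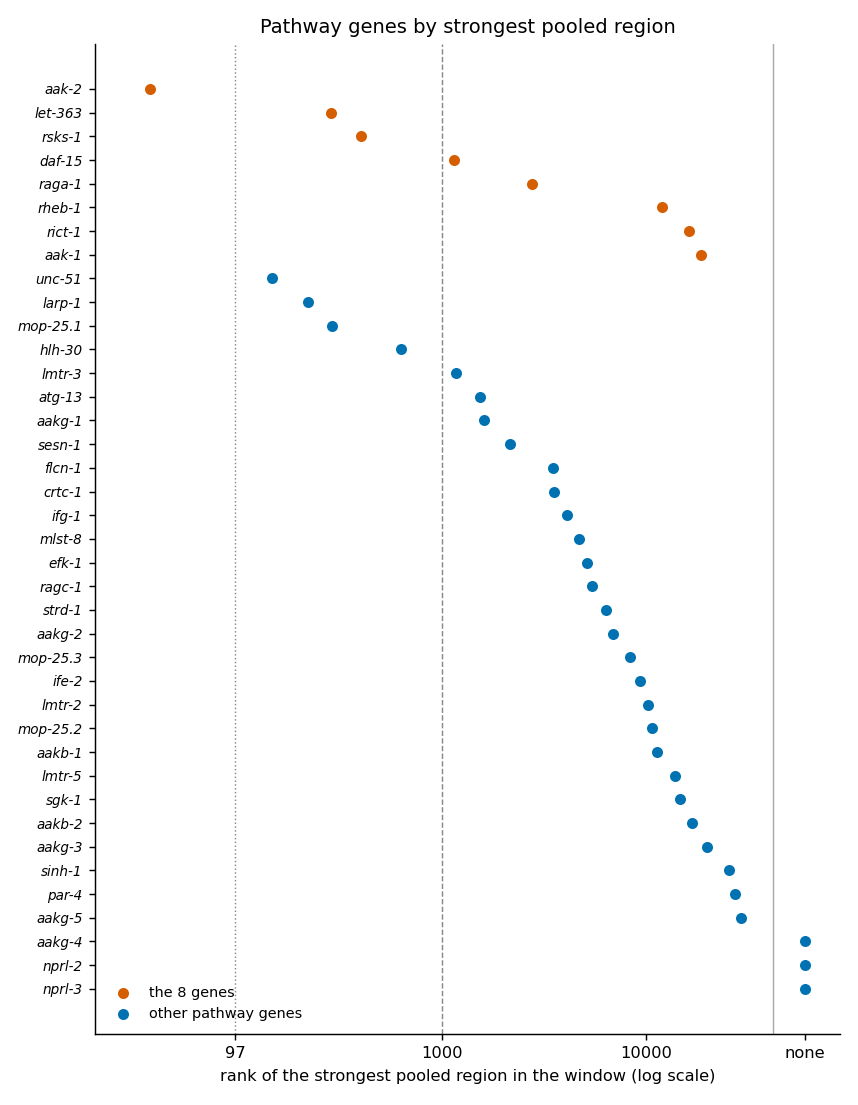
Rank of the strongest pooled region of each of the 8 genes and of the 31 other pathway genes, on a log axis with the strongest regions at the left, lines at ranks 97 (the thresholded peaks) and 1000, and genes with no region at the mark none. aak-2 at rank 37 comes before unc-51 at rank 147, and the 8 genes spread down to rank 18605 for aak-1.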

How the data were processed

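The measurements were ChIP-seq region lists from 2 samples of 1 group. The authors deposited 1 list for each replicate, 1 for both replicates pooled and 1 of thresholded peaks, each on ce10 and ce11. Per the deposited file listings, the relaxed lists hold peaks and background regions called against a control alignment, and the thresholded list passed a limit on the irreproducible discovery rate. Caller and aligner: not given in the sources used here. The deposited signal value (column 7) was used only to rank regions within a list. The authors' −log10 q-value was not used to rank or filter regions, since 161 pooled regions share its ceiling of 2.51. It is given above for the strongest member regions. The deposited summit offset placed each region. The 97 thresholded peaks were checked to be the 97 strongest pooled regions.

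Regions were assigned with Python 3.11.15, pandas 2.3.3, numpy 2.4.6 and matplotlib 3.10.9, Ensembl release 115 genes and the WBcel235 sequence, with coordinates counted from 1. The ce10 lists were not used, and no coordinates were converted. All 8 genes are named, with up to 10 other pathway genes having a region among the 1000 strongest. For each of their regions among the 5000 strongest, the nearest other gene and any gene holding the summit are named. The AMPK beta and gamma subunit genes, nprl-2, nprl-3 and par-4, replicate regions and weaker neighbours were added after their values were seen. Genes and lists were chosen with earlier results of these data known. Assignment and site search were tested on simulated data. Shares of pairs of genes and regions were added after the values were seen. No test was made.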

Additional observations from a re-analysis of the deposited data

How the results depend on the processing

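All 8 genes had a region under each of the 6 alternatives run. The count of 3 genes with 1 of the 1000 strongest regions stayed between 3 and 4 under 8 alternatives and became 5 with the 5000 strongest. The genes counted did change: rsks-1, with best ranks of 1190 in replicate 1 and 10042 in replicate 2, dropped out in each replicate's list alone. For the other pathway genes the count of 4 became 7 with the 2000 strongest, 12 with the 5000 strongest and 2 to 3 leaving out 1 replicate. A longer list can only raise these counts of genes. Of all protein-coding genes 22.5% had 1 of the 5000 strongest, and the share with the 2000 strongest is not given here. The gene with a thresholded peak numbered 0 to 1 leaving out 1 replicate: the aak-2 region, at rank 111, is not among the 97 strongest of replicate 1. Regions overlapped by both replicates fell to 2, against 11, with the 5000 strongest regions of each replicate. Shorter lists can only lower this count, and the share of all pooled regions under that limit is not given here. The median best rank of 1965 became 2979 with gene bodies only, 997 with 5000 bp upstream, and 1225.5 to 2227.5 leaving out 1 replicate. The 2 regions with a full site became 4 within 200 bp, 1 within 50 bp, 21 with the core RTCAT (held by 56.2% of all pooled regions), and 3 to 6 leaving out 1 replicate, an alternative chosen after seeing the data. A wider search can only raise the count and a narrower one only lower it. The shares of all pooled regions within 200 and 50 bp are not given here. The cause of these changes was not tested beyond the alternatives' own construction. No paired analysis was possible because there is 1 group. Depth is unknown, summits are region middles, and replicate widths differ, so positions are known only to about the width of a region.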
